A study of Mus musculus with 16 samples.

Results

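The transcripts described here encode core parts of the splicing machinery: SR proteins, heterogeneous nuclear ribonucleoproteins (hnRNPs), subunits of splicing factor 3 (SF3) and proteins of the small nuclear ribonucleoproteins (snRNPs). They were chosen by gene name, as every gene on the array whose name begins with Srsf or Sfrs, Hnrnp or Hnrp, Sf3a or Sf3b, or Snrp. This gave 52 of the 30214 gene names, of which 12 were SR, 20 hnRNP, 8 SF3 and 12 snRNP genes, with 96 probes in all. The RNA came from AML12 cells, a mouse hepatocyte line from a male animal transgenic for a growth factor. All cells carried a lentiviral, doxycycline-inducible shRNA, had received doxycycline, and were stimulated with insulin for 1 h. One set carried a scramble shRNA and the other an shRNA against eIF6, which the sample labels call shrna without naming the target. Each lysate was run on a sucrose gradient and divided into subpolysomal RNA (the light fractions, with free RNA, ribosomal subunits and single ribosomes) and polysomal RNA (the heavy fractions), so that there were 4 groups of 4 arrays: scramble subpolysomal, scramble polysomal, eIF6 shRNA subpolysomal and eIF6 shRNA polysomal. No cells without insulin were compared, each arm was a single shRNA in a single line, and both arms contained doxycycline.

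Pre-mRNA splicing is carried out by the spliceosome. The snRNPs recognize splice sites through their small nuclear RNAs, each held in a ring of Sm proteins, and SF3A and SF3B are the parts of the U2 snRNP that bind at the branch site. SR proteins, which carry a domain rich in serine and arginine, mostly favour the use of the exons they bind, while hnRNPs coat nascent RNA and often favour skipping. Many SR and hnRNP genes are known to control their own levels by splicing part of their transcripts into forms that do not make protein. eIF6 binds the large ribosomal subunit and keeps it from joining the small one.

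The shRNA target was lower in polysomal RNA of eIF6 shRNA cells. The mean log2 signal of 3 Eif6 probes was 12.94 to 12.96 on the scramble polysomal arrays and 11.81 to 12 on the eIF6 shRNA polysomal arrays, with a difference of -1.05 ± 0.08 (SE; limma adjusted p = 1.45e-07). In subpolysomal RNA the values were 11.53 to 11.66 and 11.49 to 11.74. The arrays had 20177 to 24953 probes well above background. Of 11 hepatocyte markers on the array, 7 were well above background on all 16 arrays, among them Ttr, Apob and Hnf4a, whereas Alb was so on 7 arrays, Ahsg on 3, Apoa1 on 2 and Fgb on 0. All 6 fibroblast markers looked for were well above background on all 16 arrays, as were 3 of 4 cholangiocyte, 2 of 4 macrophage (Lyz2 on 0 arrays), 2 of 3 endothelial (Cdh5 on 0) and 1 of 2 T cell markers. The part of other cell types in the results was not tested, and in such bulk RNA fewer cells of a type and less RNA per cell cannot be told apart. Each of the 4 slides held 1 array of every group.

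Of the 96 probes, 92 exceeded background clearly on 2 or more arrays of some group, and 87 on all 16 arrays. The 4 others were both probes of Srsf12, which was therefore not measured, and 1 probe each of Hnrnpa2b1 and Snrpc, genes that had other probes. Probes of 1 gene that name different transcripts were kept apart. The 51 genes measured gave 65 transcripts (16 SR, 26 hnRNP, 10 SF3 and 13 snRNP), and 13 genes had more than 1 transcript. All values are log2 signals, and a difference of 1 is a doubling. They are relative values: quantile normalization sets the arrays to a common distribution, so a transcript is compared with the other transcripts of its fraction and not with the mass of RNA there.

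Probes of Srsf2, Srsf11, Srsf10 and Hnrnpa3 differed within the gene in how they were spread between the fractions, as given below. For these genes, chosen after their values were seen, 30 bases of probes are shown, because their positions separate signals that a gene mean would merge. Sequences run 5′ to 3′ along the transcript and positions are on mouse build mm9, as in the probe annotation of the deposited files. Capitals mark runs of at least 3 codons in 1 frame that alternate between serine codons (TCN, AGC or AGT) and arginine codons (CGN, AGA or AGG). Only the transcript strand was searched, in its 3 frames, which overlap. Such a run occurred in 3.42% of all 39429 non-control probes, in 3 of the 24 SR probes measured, in 1 of 37 hnRNP probes and in 0 of 11 SF3 and 0 of 20 snRNP probes. In Srsf2, on the minus strand of chromosome 11, the probe of a transcript named only by Ensembl lies between both probes of the RefSeq transcript.
Srsf2 NM_011358, 5′ probe, chr11:116713390-116713419: aagcgagagtccaagTCTAGGTCGCGGTCC
Srsf2 ENSMUST00000177429, chr11:116712821-116712850: caattaagaagcaatgaacttttggaaccc
Srsf2 NM_011358, 3′ probe, chr11:116712009-116712038: tcattattggattggatatttgaggtaaaa
In Srsf11, on the minus strand of chromosome 3, both Ensembl probes lie 5′ of the RefSeq probe.
Srsf11 ENSMUST00000133090, chr3:157689551-157689580: aaacccttgttatactgcactccataatta
Srsf11 ENSMUST00000089922, chr3:157686461-157686490: actcttgattccaacagaatatttccttta
Srsf11 NM_026989, chr3:157675758-157675787: aggtctcctaaaagaaagctgTCTCGCTCA
In Srsf10, on the plus strand of chromosome 4, the probe of NM_001080387 lies 5′ of both probes of NM_010178.
Srsf10 NM_001080387, chr4:135419943-135419972: agtataaattatgatacttctaggcatgta
Srsf10 NM_010178, 5′ probe, chr4:135424213-135424242: atacgactttttagtgatctacttgtacat
Srsf10 NM_010178, 3′ probe, chr4:135425326-135425355: taaagtgtattccaggattgtaggctgttg
In Hnrnpa3, on the plus strand of chromosome 2, the first and the last of the 5 probes of NM_146130 are shown.
Hnrnpa3 NM_146130, first probe, chr2:75503694-75503723: tacattcctgaggtcttttatctgctgtag
Hnrnpa3 NM_146130, last probe, chr2:75507382-75507411: ctgtaattcaattgttttcatttgtagcat
Exon and UTR annotations of mm9 were not used here.

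The families differed in how their transcripts were spread between the fractions of scramble cells. Transcripts of snRNP proteins lay towards the polysomes, with a median polysomal minus subpolysomal difference of 0.88 over 13 transcripts. The median was 0.24 for 26 hnRNP transcripts, -0.10 for 16 SR transcripts and -0.47 for 10 SF3 transcripts, beside 0.04 for all 21053 transcripts tested. Of the 65 transcripts, 23 were called higher in polysomal RNA (35.4%, beside 31.7% of all transcripts) and 15 lower (23.1%, beside 28.3% of all). The calls were 9 higher and 0 lower for snRNP, 7 and 5 for hnRNP, 5 and 5 for SR, and 2 and 5 for SF3 transcripts (limma, adjusted p under 0.05). The one snRNP transcript below 0 was Snrpf, at -0.08 ± 0.17 (SE, adjusted p = 0.70). In eIF6 shRNA cells 23 were called higher and 14 lower (background 32.3% and 28.3%), and the medians were 0.53 for snRNP, 0.25 for hnRNP, 0.02 for SR and -0.42 for SF3 transcripts. Both sets of cells thus had the snRNP median highest and the SF3 median lowest. The higher calls include Snrpn NM_001082962 in both sets of cells and Hnrnph3 NM_001079824 in eIF6 shRNA cells (1.08 ± 0.39, adjusted p = 0.027). Each rested on a probe that passed the filter only through the polysomal groups, so the direction of these calls was set by the filter. Where each array was only scaled to its 75th percentile, the median of all transcripts was -0.19 in scramble cells, and relative to it the snRNP median was 1.09, the hnRNP median 0.48, the SR median 0.17 and the SF3 median -0.07, so that the SR median changed side. Scaled to the spike-in probes, the median of all transcripts was 1.46. Both scalings shift all signals of an array by the same amount. The medians relative to that of all transcripts therefore had to be the same as with the 75th percentile, and the spike-in scaling is no further check of them. With the 75th percentile the order of the families was kept, with snRNP highest and SF3 lowest. The side of the SR median and the size of the SF3 median, however, depended on the quantile normalization. Every direction given here is relative to the other transcripts and holds for quantile normalized signals, unless another scaling is named.

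**Figure D1:**
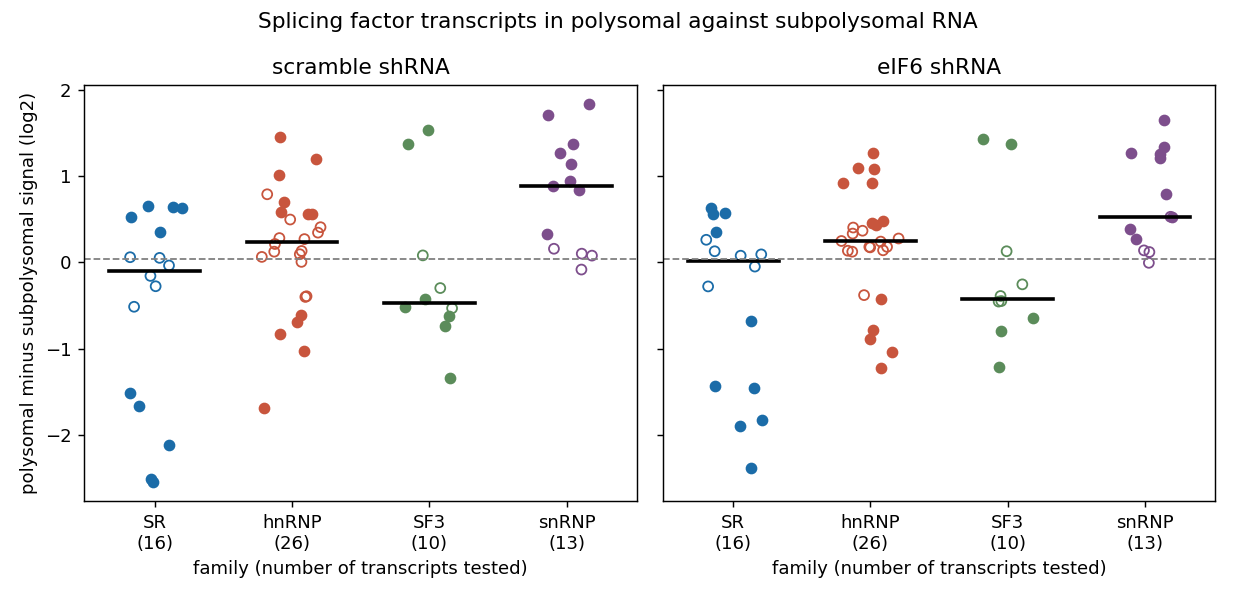
Polysomal minus subpolysomal signal (log2, vertical axis) of the 65 transcripts by family, for scramble shRNA cells (left) and eIF6 shRNA cells (right). Each point is a transcript, filled where the difference was called and open where it was not, the bars are family medians and the dashed lines the median of all 21053 transcripts; the snRNP bars stand at 0.88 and 0.53, above those of the other families.

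Among the Sm ring proteins, which form the common core of the spliceosomal snRNPs, 6 of 9 transcripts were called higher in polysomal RNA of scramble cells (66.7%, beside 31.7% of all transcripts) and 0 lower (beside 28.3%). The 6 include Snrpn NM_001082962, a call that depended on the filter, as given below. Snrpb, which encodes SmB, had signals of 10.97, 11.15, 11.24 and 11.40 on the scramble subpolysomal arrays and 12.97, 13.06, 13.13 and 12.97 on the polysomal arrays. The fractions did not overlap, and the difference was 1.84 ± 0.13 (SE, adjusted p = 1.84e-08), or 1.73 to 2.09 within the 4 slides. Snrpd3 followed with 1.71 ± 0.14, Snrpd2 with 1.38 ± 0.08 and Snrpd1 with 1.27 ± 0.11 (adjusted p from 4.35e-09 to 2.40e-07). Snrpe, at 0.33 ± 0.10, was called as well (adjusted p = 0.013), as the mean of 2 probes. These had 0.50 and 0.16 (adjusted p = 8.47e-04 and 0.21 in a fit of single probes). Snrpg, at 0.10 ± 0.10, and Snrpf were not called. The ring was thus not uniform: as means over their probes, SmD1, SmD2, SmD3 and SmB transcripts differed between the fractions by at least 1.27, and those of SmE, SmF and SmG by at most 0.33.

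Snrpn, which encodes a tissue-restricted relative of SmB, is made from a transcript that also codes for Snurf, and all 3 of its probes also match a transcript listed under Snurf in RefSeq. NM_013670 had a difference of 0.08 ± 0.15 (SE, adjusted p = 0.67). NM_001082962 was called at 1.14 ± 0.23 (adjusted p = 5.19e-04), but its 2 probes disagreed. One had a difference of 0.06 ± 0.18 (adjusted p = 0.80). The other was not well above background on any array of either subpolysomal group and was so on all 4 arrays of both polysomal groups, which gives a signal at least 1.11-fold higher in polysomal RNA of scramble cells and at least 1.58-fold higher in that of eIF6 shRNA cells. Its measured differences, with signals at background, were 2.23 and 2.32. That probe passed the filter only through the polysomal groups, so its direction was set by the filter. With only probes well above background on all 16 arrays, NM_001082962 had 0.06 in scramble and 0.22 in eIF6 shRNA cells (adjusted p = 0.79 and 0.27). These bounds set the brighter group against the lowest signals that were well above background.

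Of the 4 transcripts of proteins specific to single particles, 3 were called towards polysomes. Snrpa and Snrpc, proteins of the U1 snRNP, had differences of 0.84 ± 0.23 and 0.94 ± 0.12 (SE, adjusted p = 0.0054 and 6.89e-06). Snrpb2, which encodes U2 B″, had 0.88 ± 0.17 (adjusted p = 3.06e-04), and its binding partner Snrpa1, which encodes U2 A′, had 0.16 with an adjusted p of 0.27. For Snrpa the highest scramble polysomal signal was 13.71 and the lowest 12.33, just above the highest subpolysomal value of 12.31.

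SF3 transcripts divided by subunit. Sf3b5, a small subunit of SF3B, was called towards polysomes for both sequences on the array. BC006603 had subpolysomal signals of 13.41 to 13.66 and polysomal signals of 14.98 to 15.24 in scramble cells, a difference of 1.54 ± 0.10 (SE, adjusted p = 8.63e-09), and NM_175102 had 1.38 ± 0.10 (adjusted p = 2.38e-08). The large subunit Sf3b3 lay the other way, with -1.34 ± 0.15 for NM_133953 (adjusted p = 1.90e-06) and -0.52 ± 0.21 for AK040625 (adjusted p = 0.041). Sf3b1, the subunit that contacts the branch site, had -0.74 ± 0.24 (adjusted p = 0.017), and its signals were 6.65 to 7.29 in subpolysomal and 6.11 to 6.69 in polysomal RNA, which overlapped by little. That call was lost without replicate 1, 2 or 3 (adjusted p = 0.071 to 0.14). Sf3a2 and Sf3a3, subunits of SF3A, had -0.62 and -0.42 (adjusted p = 0.0066 and 0.049). Sf3a1, at -0.30 ± 0.20, Sf3b2, at -0.53, and Sf3b4, at 0.08, were not called. For Sf3b2 the scramble polysomal signals were 12.55, 12.56, 12.42 and 13.92, beside 13.32 to 13.50 in subpolysomal RNA. For Sf3a1 they were 10.81, 10.68, 10.62 and 11.49, beside 11.12 to 11.27. In both, only the polysomal array of replicate 4 lay above the subpolysomal values.

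The hnRNPs spanned both fractions. Towards polysomes were Hnrnpab at 1.45 ± 0.10, Hnrnpd (AUF1, which binds AU-rich elements) at 1.20 ± 0.13 and Hnrnpa0 at 1.02 (adjusted p of at most 1.90e-06). Hnrnpab signals were 13.45, 13.47, 13.62 and 13.40 in subpolysomal and 14.91, 15.09, 14.83 and 14.93 in polysomal RNA of scramble cells. Hnrnpc, which packages nascent RNA, had 0.59 ± 0.20 (adjusted p = 0.019), a call that was lost without replicate 1 or 4 (adjusted p = 0.066 and 0.071) or without the scramble subpolysomal array of replicate 4 alone (0.49, adjusted p = 0.061). Towards the subpolysomal fraction were Hnrnph1, a protein that binds runs of G, at -1.69 ± 0.16 (adjusted p = 3.50e-07), and Hnrnpa1, a classical silencer of exons, at -1.03 ± 0.14 for NM_010447 and -0.61 ± 0.11 for NM_001039129 (adjusted p = 2.13e-05 and 2.17e-04). Hnrnph1 signals were 13.89, 13.77, 13.91 and 13.60 in subpolysomal and 11.97, 12.05, 12.16 and 12.24 in polysomal RNA. Both Hnrnpa1 probes also match transcripts that RefSeq lists under Gm5643, and 1 of them also Gm10052, so that these signals cannot be assigned to Hnrnpa1 alone. Hnrnpdl, at -0.69, and Hnrnpm, at -0.83, made up the 5 lower calls. Hnrnpa2b1, at 0.28 ± 0.18, the Hnrnpk transcripts, at 0.13 ± 0.22 and 0.35 ± 0.28, and Hnrnpu, at -0.40 ± 0.23, were not called. The hnRNP median of 0.24 was 0.01 without replicate 4 and 0.08 without its scramble subpolysomal array alone.

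SR transcripts spanned differences from -2.55 to 0.66, and in Srsf2 and Srsf10 probes of the same gene were called in opposite directions. Srsf1 and Srsf3, classical members of the family, were called towards polysomes at 0.64 ± 0.10 and 0.66 ± 0.07, and Srsf9 at 0.63 (adjusted p of at most 6.33e-04). Srsf6, at 0.36 ± 0.13, passed with an adjusted p of 0.029 but not without replicate 1, 2 or 4 (0.22 to 0.38, adjusted p = 0.083 to 0.145) or without the scramble subpolysomal array of replicate 4 alone (0.27, adjusted p = 0.096). Srsf5 and Srsf7, at -0.16 ± 0.16 and -0.04 ± 0.11, and Srsf4, at -0.28, were not called. Sfrs18, now named Pnisr in RefSeq, lay towards the subpolysomal fraction at -1.66 and -1.52 for its 2 transcripts.

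Srsf2, known for controlling its own splicing, had the largest gap between probes. The RefSeq transcript NM_011358 was called towards polysomes at 0.53 ± 0.12 (SE, adjusted p = 0.0016) as the mean of its probes, and ENSMUST00000177429 was called the other way at -2.12 ± 0.31 (adjusted p = 2.90e-05). The Ensembl probe had 4.99, 4.86, 5.07 and 5.15 on the scramble subpolysomal arrays and 2.11, 2.37, 3.21 and 3.90 on the polysomal arrays. It was well above background on all 4 arrays of both subpolysomal groups, on 2 scramble polysomal arrays and on 0 eIF6 shRNA polysomal arrays, which gives a subpolysomal signal at least 4.30-fold higher in eIF6 shRNA cells. The RefSeq probes on either side of it differed too. The 3′ probe had 0.98 ± 0.20 and the 5′ probe, whose sequence above holds alternating serine and arginine codons, 0.08 ± 0.10 (adjusted p = 6.41e-04 and 0.52). The call for NM_011358 thus rested on the 3′ probe, and a mean over all 3 probes of the gene was -0.36 with an adjusted p of 0.014.

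In Srsf11 the probes differed in size but not in direction. Both Ensembl probes, which lie 5′ of the RefSeq probe, had differences of -2.55 ± 0.21 and -2.51 ± 0.23 (SE, adjusted p = 9.09e-08 and 2.42e-07). For ENSMUST00000133090 the scramble signals were 7.44, 7.31, 7.59 and 7.92 in subpolysomal and 4.88, 5.23, 5.56 and 4.41 in polysomal RNA, without overlap. The RefSeq probe, NM_026989, had -0.51 ± 0.27 (adjusted p = 0.11), with 12.47 to 13.47 in subpolysomal and 12.30 to 12.81 in polysomal RNA, which overlapped. ENSMUST00000089922 was well above background on 1 of the 4 scramble and 2 of the 4 eIF6 shRNA polysomal arrays. In eIF6 shRNA cells the 3 differences were -1.83, -1.90 and -0.68, and that of the RefSeq probe was called there as well (adjusted p = 0.040).

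In Srsf10 both probes of NM_010178 were called in opposite directions, at -0.34 ± 0.09 for the 5′ probe and 0.46 ± 0.09 for the 3′ probe (adjusted p = 0.0062 and 6.45e-04 in a fit of single probes), so that their mean of 0.06 describes neither. In Hnrnpa3 the last probe was the one below 0. It had -1.07 ± 0.11 (adjusted p = 9.60e-07), and the 6 probes before it had 0.05 to 0.66. The polysomal signal of the last probe was 9.46 to 9.72 and the subpolysomal one 10.48 to 10.72. Of the 7 probes, 3 also match a transcript listed under Gm6793. The last probe is not one of them, but both probes called higher are (0.44 and 0.61, adjusted p = 0.027 and 0.021), the first probe shown above among them, so that the higher calls cannot be assigned to Hnrnpa3 alone. Over the 28 genes with at least 2 probes measured, the median gap between the lowest and the highest probe was 0.33, 5 genes had a gap of at least 1 (Srsf2, Snrpn, Srsf11, Hnrnpa3 and Hnrnpab), and 3 genes had probes called in both directions (Srsf2, Srsf10 and Hnrnpa3). Levels of different probes were not compared, since probes differ in their response, and the differences between probes were not tested. A gap can also grow with the number of probes. The same counts were not made over all genes of the array, so such splits cannot be called particular to these genes.

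**Figure D2:**
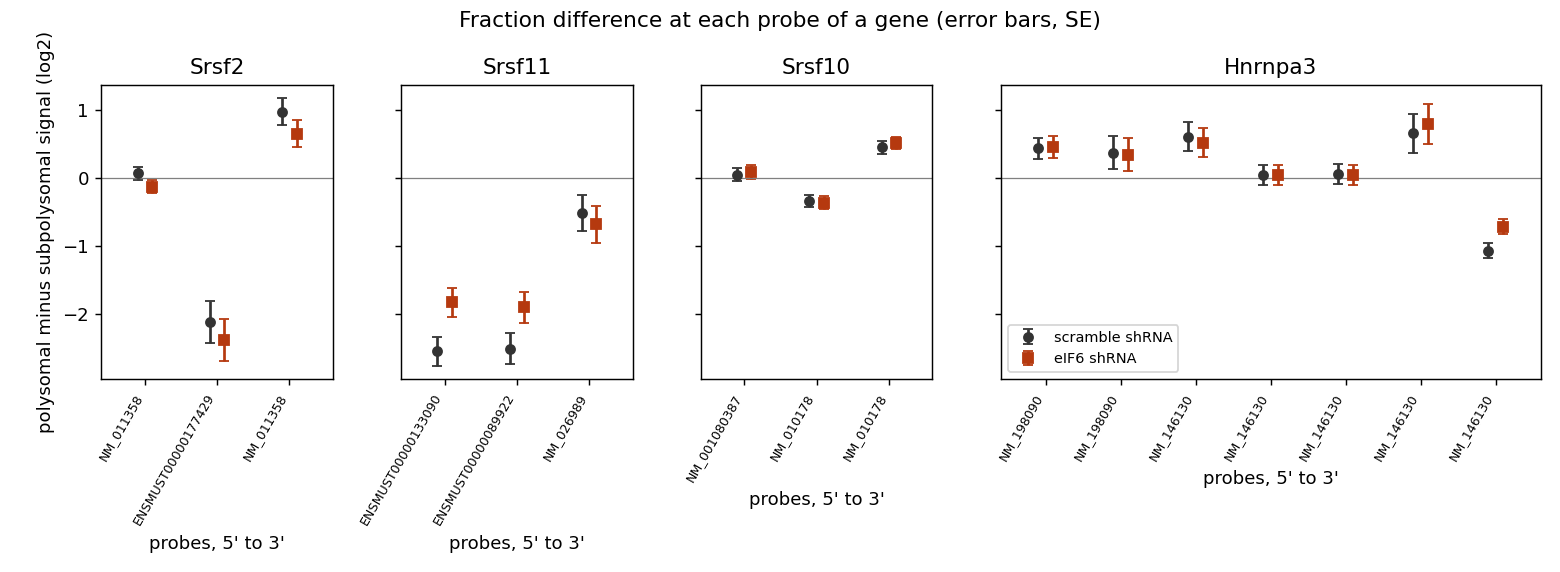
Polysomal minus subpolysomal signal (log2, vertical axis) at each probe of Srsf2, Srsf11, Srsf10 and Hnrnpa3, ordered 5′ to 3′ along the transcribed strand and named by the transcript the probe represents. Circles are scramble cells, squares eIF6 shRNA cells, and error bars the SE of the fit over 4 arrays a group; the middle probe of Srsf2, the first 2 of Srsf11 and the last of Hnrnpa3 lie at or below -0.71 in both sets of cells.

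The comparison of eIF6 shRNA with scramble cells asked which transcripts changed in each fraction. In polysomal RNA, 5 of the 65 transcripts were called lower (7.69%, beside 10.6% of all transcripts tested) and 1 higher (1.54%, beside 11.1%). The lower ones were Srsf10 NM_001080387, Snrpb2, Srsf2 NM_011358, Snrpd2 and Snrpg, and the higher one was Hnrnpul2. In subpolysomal RNA, 5 were called lower (7.69%, beside 12.2% of all) and 1 higher (1.54%, beside 11.7%). The lower ones were Srsf10 NM_001080387, Srsf11 ENSMUST00000133090, Snrpg, Snrpd2 and Hnrnpdl, and the higher one was Hnrnpa1 NM_001039129. In both fractions the shares called were below those of all transcripts, but for the lower calls not under every alternative. In the polysomal change, normexp background correction gave 9 of 65 lower, beside 2286 of all 21053. With each probe apart, 10 of 92 were lower, beside 2583 of all 25215. Without replicate 4, 8 of 65 were lower, beside 2565 of all 21058. In the subpolysomal change, 13 of 65 were lower without replicate 4, beside 3394 of all 21058. Without the scramble subpolysomal array of replicate 4 alone, 8 of 65 were lower there, beside 2548 of all 21054. With no filter, 5 of 67 were lower in the subpolysomal change, beside 2377 of all 33198.

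Over all transcripts of a family, called or not, SR transcripts were below 0 for 14 of 16 in polysomal and 16 of 16 in subpolysomal RNA, with medians of -0.18 and -0.22. snRNP transcripts were below 0 for 12 of 13 and 10 of 13, with medians of -0.23 and -0.15. The hnRNP medians were 0.04 and 0.01, and the SF3 medians 0.03 and 0.00067, beside 0.02 for all transcripts in each fraction, of which 47.7% and 47.5% were below 0. Scaled to the spike-in probes, all medians moved down with the array (-0.47 and -0.23 over all transcripts), and relative to it the SR medians were -0.20 and -0.24 and the snRNP medians -0.21 and -0.19. These are counts and medians of transcripts that share arrays, and no family was tested as such.

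**Figure D3:**
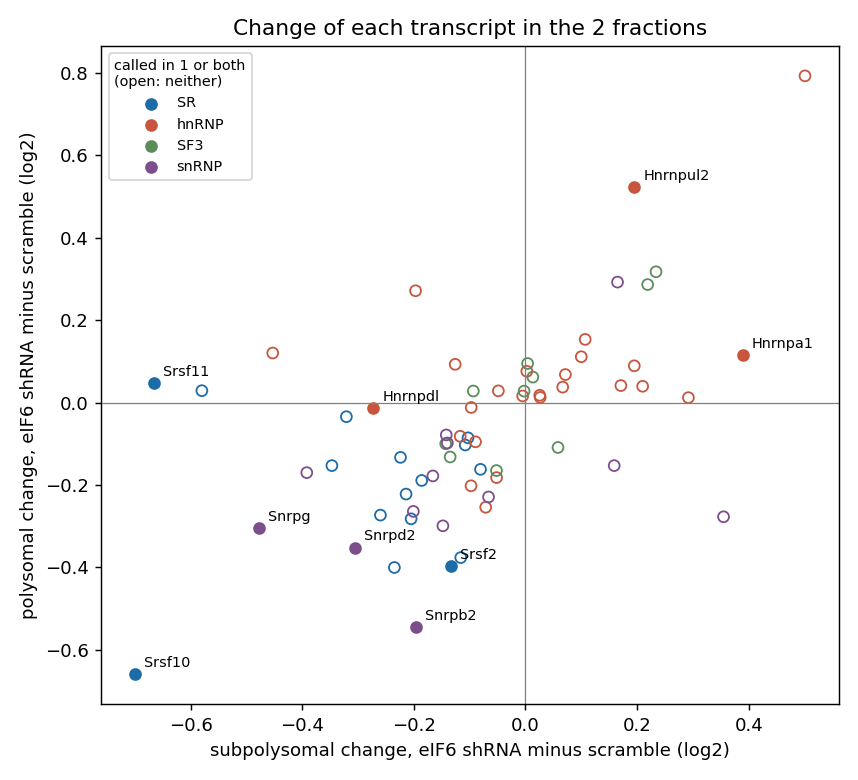
Change with the eIF6 shRNA in subpolysomal RNA (horizontal axis, log2) against that in polysomal RNA (vertical axis, log2) for the 65 transcripts, coloured by family. Filled, named points were called in at least 1 fraction; Srsf10 NM_001080387 lies lowest on both axes, at -0.70 and -0.66, and all SR points lie left of 0.

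Srsf10, an SR-related protein known as a splicing repressor when it is dephosphorylated, as in heat shock, changed in 1 of its 2 transcripts. NM_001080387 had signals of 7.48, 7.58, 7.66 and 7.54 on the scramble polysomal arrays and 7.02, 6.89, 6.83 and 6.87 on the eIF6 shRNA polysomal arrays. In subpolysomal RNA it had 7.76, 7.30, 7.41 and 7.57 in scramble cells and 6.95, 6.64, 6.86 and 6.79 in eIF6 shRNA cells. Neither fraction overlapped between the shRNAs. It fell by 0.66 ± 0.10 and by 0.70 ± 0.10 (SE, adjusted p = 1.97e-04 and 1.42e-04), and the exact permutation test of 4 against 4 arrays gave its smallest possible p, 0.0286, in both. The other transcript, NM_010178, had -0.09 ± 0.08 and -0.10 ± 0.08 (adjusted p = 0.56 and 0.42). The probe of NM_001080387 shown above is its single probe.

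Srsf2 NM_011358 had 11.67, 11.56, 11.34 and 11.55 in scramble and 11.12, 11.25, 10.80 and 11.37 in eIF6 shRNA polysomal RNA, which overlapped by 1 array of each group. It fell by 0.40 ± 0.12 (SE, adjusted p = 0.028, exact permutation p = 0.0571), and in subpolysomal RNA it had -0.13 ± 0.12 (adjusted p = 0.47). The polysomal call was lost without replicate 1, 2 or 3 (adjusted p = 0.088 to 0.21). With each probe apart it did not hold for both probes: that with the higher adjusted p had -0.455 (adjusted p = 0.134). Srsf11 ENSMUST00000133090 fell in subpolysomal RNA by 0.67 ± 0.21 (adjusted p = 0.032), from 7.31 to 7.92 down to 6.74 to 7.13, and had 0.05 ± 0.21 in polysomal RNA. That call was lost without replicate 1, 2 or 3 (adjusted p = 0.058 to 0.16), without the scramble subpolysomal array of replicate 4 alone (adjusted p = 0.088), with scaling to the 75th percentile (adjusted p = 0.062) and with each fraction normalized apart (adjusted p = 0.053). The other Ensembl transcript of Srsf11 had -0.58 and 0.03 (adjusted p = 0.079 and 0.96). Srsf1, Srsf3, Srsf6 and Srsf7 had -0.28 ± 0.10, -0.16 ± 0.07, -0.22 ± 0.13 and -0.27 ± 0.11 in polysomal RNA, none of them called (adjusted p = 0.058 to 0.28), though Srsf1 and Srsf7 passed with the slide as a block (adjusted p = 0.045 and 0.042). Srsf5 had -0.03 ± 0.16.

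Snrpd2, which encodes SmD2, had the most even decrease among the snRNP genes. Its 3 probes gave means of 16.74, 16.83, 16.61 and 16.82 on the scramble polysomal arrays and 16.33, 16.51, 16.44 and 16.32 on the eIF6 shRNA polysomal arrays, without overlap. It fell by 0.35 ± 0.08 in polysomal and by 0.31 ± 0.08 in subpolysomal RNA (SE, adjusted p = 0.0067 and 0.016), by 0.28 to 0.42 and by 0.16 to 0.43 within slides. Snrpg fell by 0.31 ± 0.10 and by 0.48 ± 0.10 (adjusted p = 0.042 and 0.0028), and the polysomal call was lost with each fraction normalized apart (adjusted p = 0.080), with no filter (0.0621), with each probe apart (0.0867) and with the replicate number as a block (0.0679). Its subpolysomal signals were 16.66 to 16.81 in scramble and 16.17 to 16.44 in eIF6 shRNA cells, without overlap, and its polysomal signals were 16.66 to 16.92 and 16.32 to 16.72, with overlap. Snrpb2 had 12.91, 12.89, 12.54 and 12.77 in scramble and 12.24, 12.24, 11.97 and 12.49 in eIF6 shRNA polysomal RNA. The groups did not overlap, and it fell by 0.54 ± 0.17 (adjusted p = 0.028, exact permutation p = 0.0286), a call that was lost without replicate 1, 2 or 3 (adjusted p = 0.095 to 0.17). The calls of Snrpd2 and Snrpg in both fractions were lost with scaling to the 75th percentile (-0.27 to -0.20, adjusted p = 0.088 to 0.29). Of these 4 calls, each was also lost without at least 1 of replicates 1, 2 and 3 (adjusted p = 0.052 to 0.25). Snrpd1, Snrpa and Snrpn NM_013670 had -0.18 ± 0.11, -0.15 ± 0.23 and -0.10 ± 0.15 in polysomal RNA (adjusted p = 0.33, 0.73 and 0.73).

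Of the hnRNPs, Hnrnpul2, a relative of Hnrnpu, had 8.64, 8.58, 8.53 and 8.98 on the scramble polysomal arrays and 8.92, 8.98, 9.17 and 9.74 on the eIF6 shRNA polysomal arrays. The groups overlapped, and it rose by 0.52 ± 0.16 (SE, adjusted p = 0.026, exact permutation p = 0.0857). Within slides the difference ran from -0.0027 to 1.10, and the call was lost without replicate 1, 2 or 3 (adjusted p = 0.065 to 0.18). Hnrnpa1 NM_001039129 rose in subpolysomal RNA by 0.39 ± 0.11 (adjusted p = 0.019), from 12.34 to 12.52 up to 12.74 to 12.83, while NM_010447 had 0.03 ± 0.14. The match to other loci given above applies to both, and the call was lost without replicate 1, 2 or 3 (adjusted p = 0.057 to 0.12). Hnrnpdl, a relative of Hnrnpd that was named after its values were seen, had 11.78 to 11.97 in scramble and 11.56 to 11.63 in eIF6 shRNA subpolysomal RNA and fell by 0.27 ± 0.08 (adjusted p = 0.019), with -0.01 ± 0.08 in polysomal RNA. The subpolysomal call of Hnrnpdl, too, was lost without replicate 1, 2 or 3, and with scaling to the 75th percentile. Hnrnpa2b1, Hnrnpc, Hnrnpd, Hnrnpk and Hnrnpu had polysomal changes between -0.10 and 0.09, and Hnrnpd had 0.29 ± 0.13 in subpolysomal RNA (adjusted p = 0.13). Hnrnph3 NM_001079824, with the largest positive values of all members (0.79 ± 0.39 in polysomal and 0.50 ± 0.39 in subpolysomal RNA, adjusted p = 0.19 and 0.40), was not well above background on any subpolysomal array and on 2 of the 4 scramble polysomal arrays. No SF3 transcript was called in either fraction. Sf3a1 and Sf3b1 had -0.10 ± 0.20 and 0.09 ± 0.24 in polysomal RNA, and the lowest adjusted p of the 10 transcripts was 0.30 in polysomal and 0.36 in subpolysomal RNA.

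**Figure D4:**
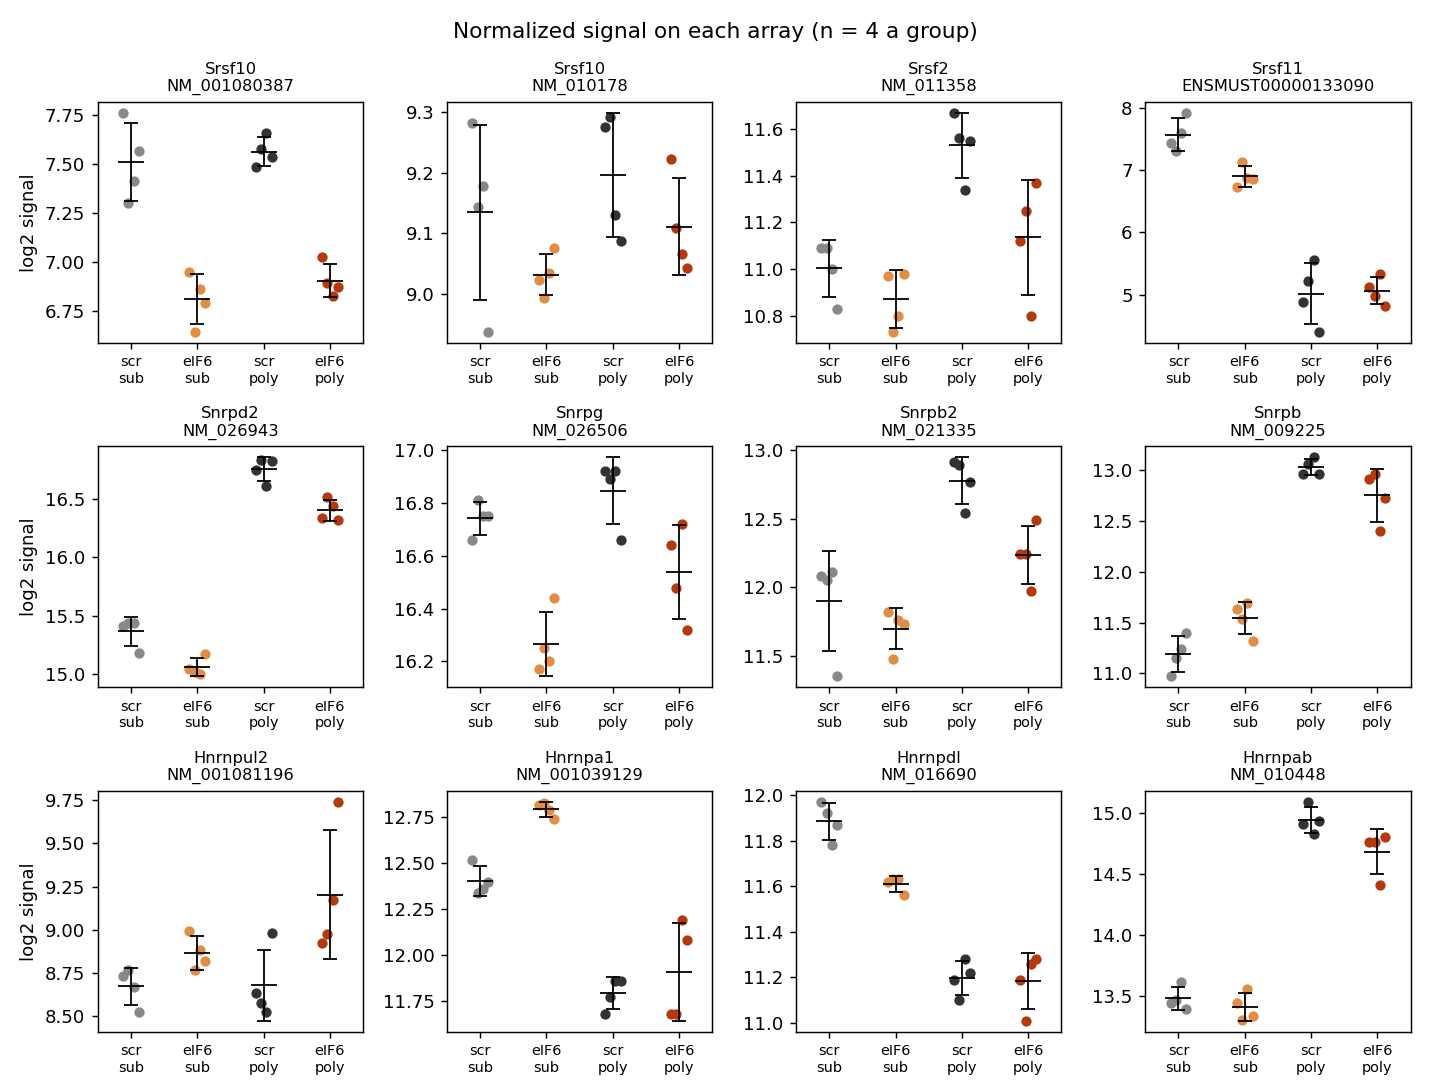
Normalized log2 signal (vertical axis, own scale in each panel) on every array for 12 transcripts, with scramble (scr) and eIF6 shRNA (eIF6) subpolysomal (sub) and polysomal (poly) groups. Points are arrays, the wide ticks the means and the error bars the SD (n = 4); Srsf10 NM_001080387 is lower with the eIF6 shRNA in both fractions, and Snrpb lies between 10.97 and 11.69 in subpolysomal and between 12.40 and 13.13 in polysomal RNA.

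The change of translational efficiency, the polysomal change minus the subpolysomal change, was called for 0 of the 65 transcripts in either direction (limma), where 1.05% of all transcripts were called lower and 0.375% higher. At an unadjusted p under 0.05, 1 snRNP transcript of the 65 was lower and 1 SR and 1 hnRNP transcript were higher. Over all 21053 transcripts, 1507 were lower and 1094 higher at that threshold. The family medians were 0.00152 for SR, 0.00345 for hnRNP, 0.05 for SF3 and -0.05 for snRNP transcripts, beside 0.02 for all. Snrpb had the most negative value, -0.63 ± 0.18 (SE, adjusted p = 0.12), and was negative on all 4 slides (-1.01 to -0.35). Its polysomal signals were 12.97, 13.06, 13.13 and 12.97 in scramble and 12.92, 12.97, 12.40 and 12.73 in eIF6 shRNA cells, and its subpolysomal ones 10.97, 11.15, 11.24 and 11.40 and 11.63, 11.54, 11.69 and 11.32. The polysomal minus subpolysomal difference of Snrpb was thus 1.84 in scramble and 1.21 in eIF6 shRNA cells. The highest value, 0.71 ± 0.30 (adjusted p = 0.33), belonged to Srsf11 ENSMUST00000133090, and its neighbour ENSMUST00000089922 had 0.61 ± 0.32 (adjusted p = 0.48). Hnrnpr, with 1 of its 2 probes well above background on 1 of 4 eIF6 shRNA subpolysomal arrays, had 0.57 ± 0.32 and Hnrnph1 had 0.47 ± 0.22, neither called (adjusted p = 0.53 and 0.42). For Srsf10 NM_001080387, which had fallen in both fractions, the value was 0.04 ± 0.14.

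Other splicing genes were given as a wider list of 108 names, of which 101 were measured by 118 transcripts. In polysomal RNA 8 of these were called lower (6.78%, beside 10.6% of all transcripts) and 1 higher (0.847%, beside 11.1%), and in subpolysomal RNA 14 lower (11.9%, beside 12.2%) and 1 higher (0.847%, beside 11.7%). The largest of these changes were those of Cwc22, a splicing factor that loads the exon junction complex, at -1.05 ± 0.17 in polysomal and -1.83 ± 0.17 in subpolysomal RNA for ENSMUST00000111824 (SE, adjusted p = 3.68e-04 and 2.30e-06), and those of Ddx39b, an RNA helicase of splicing and export, at -0.73 ± 0.12 and -1.12 ± 0.12 for ENSMUST00000173731. The RefSeq transcript of Cwc22, NM_030560, had -0.56 ± 0.13 and -1.20 ± 0.13 (adjusted p = 0.0063 and 1.15e-05). Srpk2, a kinase of SR proteins, was the 1 higher call in polysomal RNA, at 0.64 ± 0.16 (adjusted p = 0.0080). Qk, an RNA-binding regulator of splicing, followed in subpolysomal RNA at -1.06 ± 0.20 for AK033279 (adjusted p = 0.00126). Its transcripts NM_021881 and NM_001159517 had -0.587 and -0.484 there (adjusted p = 3.54e-04 and 0.0448). In scramble cells 52 of the 118 were called towards the subpolysomal fraction (44.1%, beside 28.3% of all transcripts) and 25 towards the polysomal fraction (21.2%, beside 31.7%), with a median of -0.31 beside 0.04 for all. The largest differences were those of Ddx39b (-4.09), Rbm25 (-3.14) and Prpf31 (-2.74), each for a transcript named only by Ensembl. The RefSeq transcript of Rbm25, NM_027349, had -0.918 ± 0.16 (adjusted p = 1.5e-04).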

How the data were processed

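Polysomal and subpolysomal RNA of AML12 cells was measured on 16 one-colour Agilent arrays, 4 a group, which GEO's labels describe as biological quadruplicates. The deposited scanner files hold intensity values: the authors' Feature Extraction software (10.7.3.1 in the file headers, 10.7.7.1 in the submitters' processing notes) had subtracted background and given a processed signal per spot, with probe positions on mm9. The deposited series table holds log2 values that the authors had quantile normalized (r of 0.9947 to 0.9997 with the log2 intensity of the same array) and served as an alternative. The authors' methods state quantile normalization and limma, which were followed here. Each array had 44397 spots and 0 saturated spots, 20177 to 24953 probes were well above background, and precision is limited by having 4 arrays a group.

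Control spots were left out. Probes that exceeded background clearly on 2 or more arrays of any group were kept (25260), log2 signals were quantile normalized, and probes with the same gene name and transcript were averaged. This gave 21053 transcripts, after 33 with a missing value were left out. One limma model (limma 3.58.1, R 4.3.3) of 4 group means gave all contrasts, with Benjamini-Hochberg adjustment over all transcripts and a threshold of 0.05, and was tested on simulated data. Exact permutation tests were two-sided, and the smallest p of 4 against 4 arrays is 0.0286. Members and gene lists were chosen with earlier results of these data known. Named were 18 preset genes, the 4 largest called changes a direction and contrast, genes whose transcripts differed in sign with 1 called, and transcripts dim in a whole group. Other genes were named after their values were seen. Of 52 gene names, 51 were current RefSeq symbols. Alternatives were other scalings, background correction, filters, units of the fit, blocks, the deposited log2 values and leaving out replicates. Figures were drawn with matplotlib 3.10.9.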

Additional observations from a re-analysis of the deposited data

Results flagged for a closer look

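In 136 groups of 4 arrays, 10 held an array whose gap to the nearest other exceeded Dixon's critical value, where chance flags about 1 in 20, and 4 of the 10 were the scramble subpolysomal array of replicate 4. On that array Snrpb2 had a log2 signal of 11.35 (the others 12.05 to 12.11), Snrpd2 15.18 (15.41 to 15.44), Hnrnpa2b1 13.45 (13.67 to 13.71) and Snrpn NM_013670 8.77 (8.43 to 8.45). On the scramble polysomal array of replicate 4, Snrpg had 16.66 (16.89 to 16.92) and Snrpn NM_013670 8.34 (8.66 to 8.71). Snrpd3 had 12.47 on the scramble subpolysomal array of replicate 1 (12.68 to 12.72). In eIF6 shRNA cells, Hnrnpab had 14.41 on the polysomal array of replicate 3 (14.76 to 14.80), Hnrnpu 12 on the subpolysomal array of replicate 4 (11.70 to 11.74) and Srsf5 13.63 on the polysomal array of replicate 4 (13.24 to 13.30).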

How the results depend on the processing

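The 55 calls of named transcripts gave 985 values under alternatives, of which 875 kept direction and call, 100 kept only the direction and 10 turned. Scaling to the spike-in probes left 0 transcripts lower and 0 higher in the polysomal and subpolysomal changes, and gave 2 lower and 51 higher between the fractions of scramble cells and 2 and 49 in eIF6 shRNA cells. Of all 21053 transcripts it called 1060 lower and 106 higher in the polysomal change and 342 and 40 in the subpolysomal change. The medians of SR, hnRNP, SF3 and snRNP transcripts were then -0.67, -0.42, -0.42 and -0.68 for the polysomal change, -0.47, -0.25, -0.26 and -0.42 for the subpolysomal change, 1.63, 1.94, 1.39 and 2.56 between fractions of scramble cells and 1.42, 1.77, 1.23 and 2.20 in eIF6 shRNA cells, and for translational efficiency -0.21 (SR), -0.19 (hnRNP) and -0.25 (snRNP). The differences between fractions of Hnrnpa1 NM_001039129 (1.27 in scramble, 0.78 in eIF6 shRNA cells), Hnrnpa1 NM_010447 (0.68 and 0.47), Hnrnph1 (0.19 and 0.42) and Sf3b1 (0.67 and 0.57) turned, as the median of all transcripts was 1.46 and 1.26. With the 75th percentile, 3 were lower in the polysomal and 1 in the subpolysomal change (beside 2292 and 2034 of all 21053), the snRNP median in eIF6 shRNA cells was 0.73, and Snrpg turned there to -0.67 (adjusted p = 4.40e-04). Normexp gave 9 lower in the polysomal change (beside 2286 of all 21053). With each probe apart, which tests more features, 10 and 9 of 92 were lower in the polysomal and subpolysomal changes (beside 2583 and 3008 of all 25215), 36 and 37 higher between the fractions of scramble and eIF6 shRNA cells, and the SR median in scramble cells was 0.0851. Gene means gave 0 higher in the subpolysomal change, an snRNP median of 0.66 in eIF6 shRNA cells and -0.36 for Srsf2 between the fractions of scramble cells. The strictest filter and the slide block each gave 2 higher in the subpolysomal change. Without the scramble subpolysomal array of replicate 4, chosen after seeing the data, 8 were lower and 2 higher in the subpolysomal change (beside 2548 and 2454 of all 21054), and the hnRNP median of scramble cells was 0.08. Leaving out each replicate gave 1 to 8 lower and 0 to 1 higher in the polysomal change, 1 to 13 lower and 0 to 3 higher in the subpolysomal change, and medians in scramble cells of -0.23 to 0.00168 (SR), 0.0129 to 0.38 (hnRNP) and 0.70 to 1.03 (snRNP), and in eIF6 shRNA cells of 0.10 to 0.36 (hnRNP) and 0.46 to 0.64 (snRNP). The highest counts of lower calls, 8 and 13, were without replicate 4. Over all transcripts these fits called 1562 to 2565 lower and 1393 to 2860 higher in the polysomal change. In the subpolysomal change they called 1520 to 3394 lower and 1294 to 3288 higher. The highest of these counts, too, were without replicate 4. Where not stated, the cause was not tested.

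Deviations of arrays with the same replicate number correlated at -0.22 to 0.42 (median -0.01 over 24 pairs). For the 8 of these pairs that were both fractions of 1 shRNA, r was -0.155 to 0.0335 (median -0.02), so the numbers were not taken to pair the arrays. Arrays of the same slide had a median r of 0.13 over 24 pairs. The highest r, 0.42, was that of both polysomal arrays of replicate 4, which had different shRNAs, and pairs of other numbers reached 0.26, on the same slide. With both fractions of the same shRNA and number taken as pairs, 39 calls of named transcripts between fractions were kept and 5 lost. Lost were Srsf6 in scramble cells (adjusted p = 0.0741) and Srsf6, Snrpg, Hnrnpc and Hnrnph3 NM_001079824 in eIF6 shRNA cells (adjusted p = 0.0528 to 0.087). With the replicate number as a block, 5 were lower and 1 higher in the polysomal change, where Snrpg was lost (adjusted p = 0.0679) and Snrpc gained (adjusted p = 0.0384), 5 were lower and 1 higher in the subpolysomal change, 0 changed in translational efficiency, and 14 and 23 (scramble) and 13 and 23 (eIF6 shRNA) were lower and higher between fractions. Dim transcripts, such as the Ensembl transcript of Srsf2, are limited by signal over background.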
